A study of Mus musculus with 4 samples.

Results

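Narrow shared distal peaks were short and weak accessible sites found in both oxygen conditions. They were the autosomal ATAC-seq peaks assigned to hypoxia and normoxia together, at most 400 bp wide. Each lay over 5 kb away from every protein-coding start site in GENCODE M21. Only starts of transcripts typed as protein-coding were counted, so some peaks lay near another start of a protein-coding gene. This rule gave 8901 of 128055 peaks, which is 7.15% of the 124498 peaks on autosomes. The comparison set was the 82162 wider shared distal peaks, chosen by the same rule but over 400 bp wide. Peak widths came in steps of 100 bp, and 3057 of the narrow peaks were 400 bp wide, 2944 were 300 bp, 1722 were 200 bp and 1178 were 100 bp.

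The libraries came from mesenchymal stem cells (MSCs) of mice aged 3 to 5 months, whose strain the labels do not give. Cells were grown out of back-limb bone in low oxygen, sorted for Sca-1 and PDGFRa and against the blood markers CD45 and Ter-119, and the sorted cells were then either kept in hypoxia (2% O2, 2 libraries) or moved to normoxia (21% O2, 2 libraries), so that both groups had been in hypoxia first. In ATAC-seq the Tn5 transposase cuts and tags open DNA, so that reads pile up where chromatin is accessible. The replicates are described as biologically independent, and the labels number them 1 and 2 without naming the animals.

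Most accessible sites of a mammalian genome lie away from promoters, and many of them are enhancers, short stretches where transcription factors bind and displace a nucleosome. Factors of the AP-1, RUNX, TEAD and C/EBP families bind such distal sites in stromal and bone-forming cells, and CTCF binds sites that fold the genome into loops. The width of a peak reflects how far along the DNA the signal rises above background.

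To show what these sites look like, the plus strand of the GRCm38 (mm10) genome from RefSeq is printed for 2 narrow peaks that were called lower in normoxia, for the 3 higher ones with the lowest limma p-values, and for 1 of the 5 strongest narrow peaks (Dcbld2), which was not called. The middle 300 bases are given, or the whole peak where it was shorter, and each peak is named by the nearest protein-coding start site. Capitals mark matches, on either strand, to the motifs of AP-1 (TGANTCA), RUNX (TGTGGT), TEAD (CATTCC), C/EBP (TTGCNNAA) and HIF (ACGTG or GCGTG). A match is a run of letters and not a measured binding site.
Npy1r peak (chr8:66712351-66712650): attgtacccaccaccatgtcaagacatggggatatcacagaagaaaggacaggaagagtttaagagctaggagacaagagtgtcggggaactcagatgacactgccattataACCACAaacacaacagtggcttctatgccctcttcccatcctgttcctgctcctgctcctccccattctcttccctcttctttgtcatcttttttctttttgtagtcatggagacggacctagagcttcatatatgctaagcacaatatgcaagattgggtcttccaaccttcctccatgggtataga
Plk2 peak (chr13:110492651-110492950): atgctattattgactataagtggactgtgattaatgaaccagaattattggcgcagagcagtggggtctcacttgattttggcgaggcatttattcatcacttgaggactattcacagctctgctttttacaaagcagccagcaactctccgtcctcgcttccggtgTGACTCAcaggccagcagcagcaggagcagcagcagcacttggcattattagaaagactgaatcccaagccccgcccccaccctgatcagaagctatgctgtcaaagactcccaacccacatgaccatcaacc
Angptl1 peak (chr1:156822001-156822300): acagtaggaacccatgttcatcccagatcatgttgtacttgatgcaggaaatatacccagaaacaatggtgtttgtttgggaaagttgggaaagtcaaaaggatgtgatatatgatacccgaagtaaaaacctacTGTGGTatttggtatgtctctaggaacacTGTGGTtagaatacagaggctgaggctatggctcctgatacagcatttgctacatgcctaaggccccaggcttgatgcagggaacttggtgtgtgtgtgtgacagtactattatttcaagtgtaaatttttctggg
Efnb2 peak (chr8:8055851-8056150): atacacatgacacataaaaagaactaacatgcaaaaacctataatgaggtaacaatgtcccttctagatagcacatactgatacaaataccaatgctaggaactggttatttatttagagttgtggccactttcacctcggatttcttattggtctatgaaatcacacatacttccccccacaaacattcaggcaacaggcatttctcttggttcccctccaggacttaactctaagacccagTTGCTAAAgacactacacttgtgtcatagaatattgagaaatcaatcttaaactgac
Sltm peak (chr9:70581951-70582250): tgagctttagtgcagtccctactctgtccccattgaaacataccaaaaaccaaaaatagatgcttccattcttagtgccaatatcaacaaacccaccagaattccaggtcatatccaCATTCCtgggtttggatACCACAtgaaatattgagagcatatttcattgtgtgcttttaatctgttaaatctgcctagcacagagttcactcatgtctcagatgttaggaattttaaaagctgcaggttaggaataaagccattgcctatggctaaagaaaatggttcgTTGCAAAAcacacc
Dcbld2 peak (chr16:58303601-58303900): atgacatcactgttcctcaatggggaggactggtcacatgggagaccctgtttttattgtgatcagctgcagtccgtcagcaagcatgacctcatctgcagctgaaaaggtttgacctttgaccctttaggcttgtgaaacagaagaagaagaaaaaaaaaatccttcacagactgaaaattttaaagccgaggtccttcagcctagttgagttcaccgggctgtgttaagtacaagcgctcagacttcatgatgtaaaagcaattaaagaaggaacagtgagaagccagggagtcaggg

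The first 2 of these sequences were the lower peaks. The Npy1r peak held 1 RUNX match and the Plk2 peak 1 AP-1 match. The Angptl1 peak held 2 RUNX matches, the Efnb2 peak 1 C/EBP match, and the Sltm peak 1 match each to RUNX, TEAD and C/EBP. The Dcbld2 peak held none of these motifs. Repeat-masked letters made up 22.5% of the Npy1r peak and between 6.0% and 14% of the other 5 peaks. Over all 5 peaks called lower, repeats covered a mean of 49.5% of the 300 bases around the middle. This mean was 13.6% in the 67 peaks called higher and 15.5% in all narrow peaks. The part of repeats in the calls was not tested.

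The deposited signal of a peak was its read number per 10000000 reads of the library, and the recovered library totals ran from 26680936 to 29965523 reads. A narrow peak held few reads, with a median of 10 and 11 in the hypoxia libraries against 8 and 9 in the normoxia libraries, beside 36 to 53 in wider peaks. Between 9.17% and 15.1% of the narrow peaks held 3 reads or fewer in a library, and 390 of them were at 0 in at least 1 library. The promoters of all 7 mesenchymal markers examined, Pdgfra, Ly6a, Thy1, Eng, Nt5e, Prrx1 and Twist1, held a peak, with a summed signal of 998 and 1000 in hypoxia against 553 and 604 in normoxia. Of 4 blood markers, Spi1 and Csf1r had a promoter peak and Ptprc and Cd68 had none, with a summed signal of 109 and 114 in hypoxia against 81.0 and 84.4 in normoxia. Of 3 endothelial markers Cdh5 had none, and the summed signal was between 22.9 and 36.0 in the 4 libraries. Pdgfra and Ly6a encode the markers used in the sort and Ptprc encodes CD45. The sums of mesenchymal and of blood markers were lower in normoxia, while single markers such as Eng and Spi1 overlapped between the groups. The summed signal of all peaks was lower too, with a normoxia over hypoxia ratio of 0.587. That sum includes mitochondrial peaks, which held 7.77% and 9.13% of the hypoxia libraries against 1.5% and 2.34% of the normoxia libraries. The part of the markers in the results was not tested.

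Narrow shared distal peaks lay mostly between protein-coding genes. Intergenic sequence held 4700 of them (52.8%), introns of protein-coding genes held 3709 (41.7%) and 492 touched an exon. With all GENCODE genes counted, noncoding ones included, 44.5% were intergenic and 47.5% intronic. By protein-coding genes, the wider shared distal peaks were placed much alike, with 51.4% intergenic, 38.2% intronic and 10.4% touching an exon. A wider peak has more bases with which to touch an exon, and the part of width was not tested. The intronic narrow peaks fell in 2345 genes. The median distance to a protein-coding start site was 42275 bp for narrow peaks and 40996 bp for wider ones, and the nearest other peak was a median of 3900 and 3700 bp away. Start sites of any GENCODE gene, noncoding ones included, lay within 1 kb of 409 narrow peaks. Narrow peaks made up between 5.86% (chromosome 7) and 7.93% (chromosome 16) of the peaks of an autosome.

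**Figure D1:**
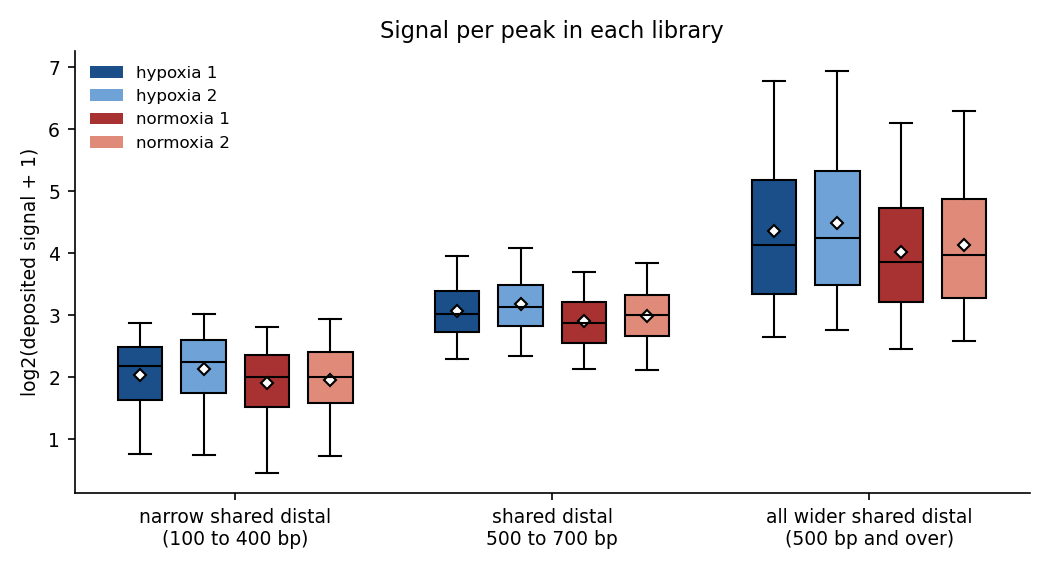
Signal per peak as log2(deposited signal + 1) in the 2 hypoxia and 2 normoxia libraries, for narrow shared distal peaks, shared distal peaks of 500 to 700 bp and all wider shared distal peaks. Boxes span the quartiles with the median as a line, whiskers reach the 5th and 95th percentiles and diamonds are means. In all 3 sets both normoxia medians lie below both hypoxia medians, and narrow peaks sit lowest in every library.

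On the deposited scale narrow peaks were lower in normoxia, and they fell less than wider peaks. The median log2 ratio of normoxia over hypoxia was -0.17 in narrow peaks and -0.37 in wider ones, on the log2(signal + 1) scale. The 4 possible ratios of 1 normoxia library over 1 hypoxia library gave medians of -0.14, -0.23, -0.07 and -0.19 in narrow peaks and of -0.37, -0.49, -0.26 and -0.38 in wider peaks. Every pairing was therefore below 0 in both sets, and in every pairing the narrow peaks were nearer to 0. In a bulk library, fewer cells with an open site and a less open site in each cell cannot be told apart.

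The same comparison was made with summed reads, which need no added constant. Narrow peaks held 0.314% and 0.341% of all reads in the hypoxia libraries against 0.278% and 0.292% in the normoxia libraries, a ratio of 0.872. Wider peaks held 26.2% and 29.0% in hypoxia against 18.1% and 20.2% in normoxia, a ratio of 0.695. The groups did not overlap in either set. Both sets hold only peaks that the caller assigned to both conditions from these same libraries. Left out of the narrow set were 4521 hypoxia-only distal peaks of up to 400 bp, whose summed ratio was 0.188. The part of this choice in the comparison was not tested.

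Set against each other within a library, these shared narrow peaks held relatively more reads in normoxia. For every 1000 reads in wider peaks, 12.0 and 11.8 reads fell in narrow peaks in hypoxia against 15.4 and 14.4 in normoxia. The difference of 3.04 was larger than the pooled SD between replicates of 0.467, with 2 libraries a group. The exact permutation test (two-sided) gave p = 0.333, the smallest p that 2 libraries against 2 allow, so no value compared over libraries here can pass 0.05. Over the 40 values compared in this way the lowest Benjamini-Hochberg adjusted p was 0.392.

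This measure does not change with the scaling, because a factor for a whole library cancels in the ratio of its narrow to its wider peaks. Such a factor does not cancel differences in how reads divide between peaks and the rest of a library. Recovered reads in all peaks numbered 16104713 of 28259470 and 18338038 of 29413803 in hypoxia. In normoxia they numbered 8682213 of 26680936 and 11252541 of 29965523. The part of reads outside peaks in the comparison was not tested. The direction of the narrow peaks alone does depend on the reference. Their share of the reads in autosomal peaks was 0.648% and 0.651% in hypoxia against 0.908% and 0.843% in normoxia, so it was higher in normoxia by a ratio of 1.35. After scaling with RLE (relative log expression) size factors, which set the typical peak to no change, the median log2 ratio was 0.17 in narrow peaks and 0.08 in wider ones. Reads on the mitochondrial genome took 7.77% and 9.13% of the hypoxia libraries against 1.5% and 2.34% of the normoxia libraries, and with these left out of the library totals the median of narrow peaks was -0.25.

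The way in which the peaks were averaged also mattered. The median log2(signal + 1) of narrow peaks minus that of wider peaks was -1.96 and -2.0 in the hypoxia libraries against -1.86 and -1.97 in the normoxia libraries. These values overlapped between the groups (difference 0.067, pooled SD 0.061, exact permutation p = 0.667). Medians of weak peaks move in steps of 1 read, and with means over peaks the values were -2.31 and -2.35 in hypoxia against -2.11 and -2.19 in normoxia, which did not overlap (difference 0.18, pooled SD 0.042, exact permutation p = 0.333). The means were added after the data had been seen.

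**Figure D2:**
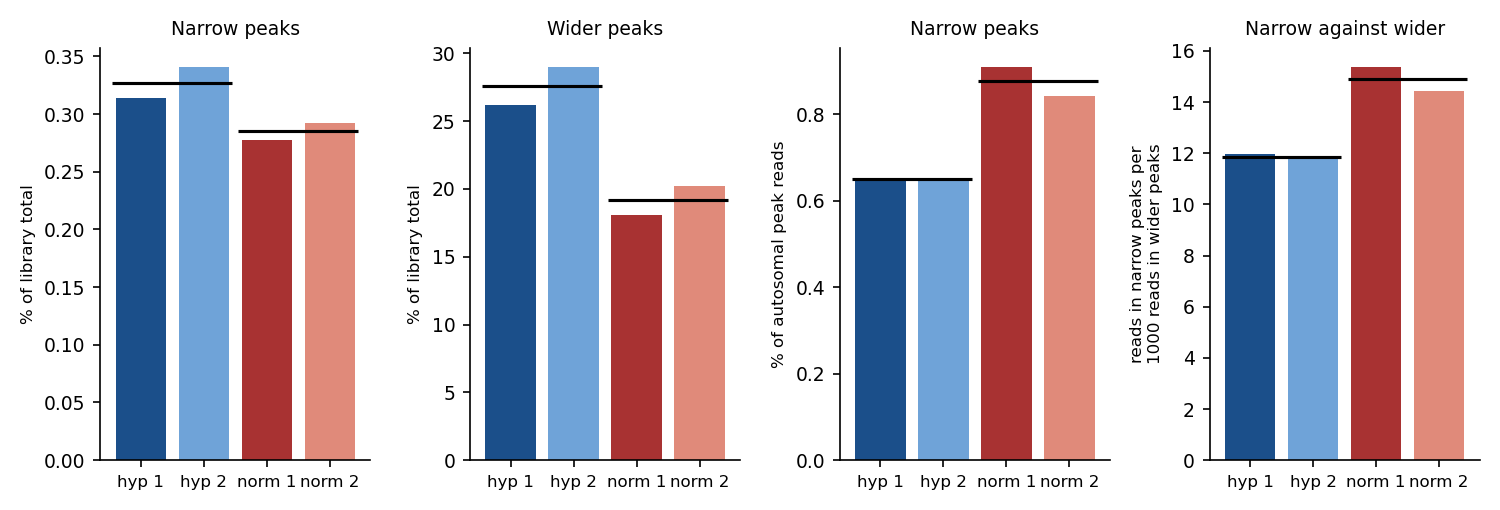
Reads in narrow and in wider shared distal peaks in each library, as a percentage of the library total (left panels), as a percentage of reads in autosomal peaks (next panel), and as reads in narrow peaks per 1000 reads in wider peaks (right panel). Bars are libraries and black lines group means. The share of the library total is lower in both normoxia libraries, while the share of peak reads and the number per 1000 are higher in both.

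The difference did not begin at 400 bp. The median log2 ratio was between -0.16 and -0.18 for peaks 100, 200, 300 and 400 bp wide, and it was -0.18 in the 3588 shared distal peaks of 500 bp just outside the limit and -0.18 at 600 bp. It then moved further from 0 with width, to -0.24 at 800 bp, -0.32 at 1000 bp and -0.46 at 1500 bp. The normoxia over hypoxia ratio of summed signal took another course among narrow peaks, since it rose with width from 0.825 at 100 bp to 0.856 at 200 bp, 0.872 at 300 bp and 0.882 at 400 bp. Beyond that it was 0.869 at 500 bp, 0.876 at 600 bp, 0.769 at 1000 bp and 0.686 at 1500 bp. Against the 19174 peaks of 500 to 700 bp alone, narrow peaks differed by 0.02 in the median log2 ratio, and the mean log2 difference within a library was -1.02 and -1.05 in hypoxia against -1.0 and -1.04 in normoxia (change 0.018, pooled SD 0.027, exact permutation p = 0.667). A change between narrow peaks and the next wider class was thus within the spread between replicates.

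**Figure D3:**
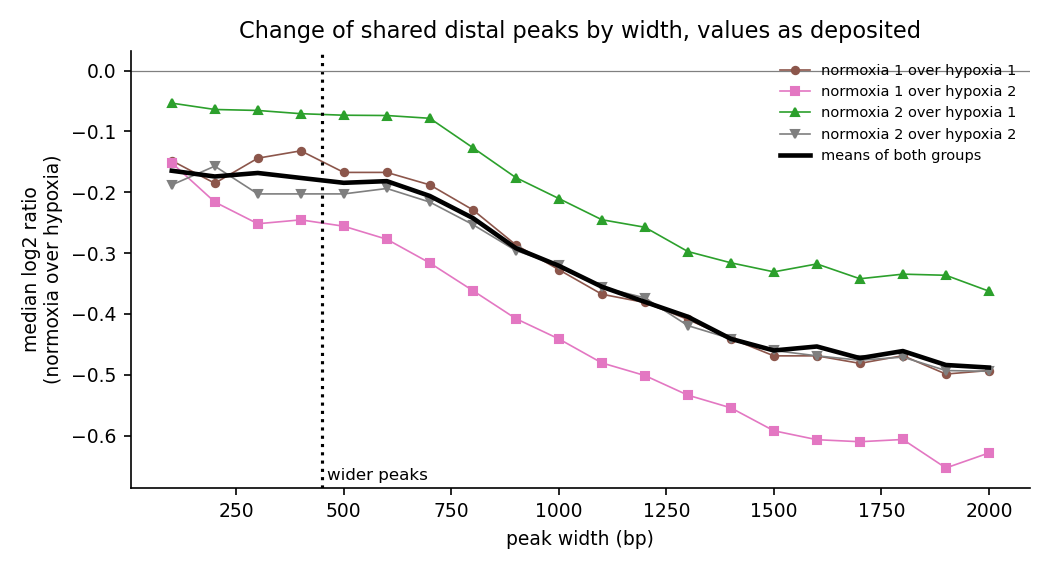
Median log2 ratio of normoxia over hypoxia, values as deposited, for shared distal peaks of each width from 100 to 2000 bp. Coloured lines are the 4 pairings of single libraries, the black line uses group means, and the dotted line separates narrow from wider peaks. The black line is nearly level up to about 600 bp and declines beyond it, while the line of normoxia library 1 over hypoxia library 2 already moves from -0.15 at 100 bp to -0.28 at 600 bp.

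Width and strength went together, so wider peaks were also weighted to the narrow peaks' distribution of mean signal, in steps of 0.25. Only 60.6% of the narrow peaks had at least 20 wider peaks of like signal. Over these the weighted median log2 ratio was -0.15 in narrow and -0.34 in wider peaks. Few wider peaks were as weak as most narrow ones. At a mean signal of 2 to 4 the median was -0.25 in 3760 narrow and -0.36 in 168 wider peaks. At 4 to 6 it was -0.098 in 3580 narrow and -0.23 in 4490 wider peaks. Weighting by GC content, for which all narrow peaks found a match, left the difference at 0.19.

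The changes of intronic and intergenic narrow peaks differed by less than the spread between replicates. The median log2 ratio was -0.17 in both, and their share of the library total had a normoxia over hypoxia ratio of 0.869 in introns and 0.875 between genes. Intronic peaks were slightly weaker in every library, with a mean log2(signal + 1) lower than that of intergenic peaks by 0.060 and 0.064 in hypoxia against by 0.055 and 0.082 in normoxia. The change in that difference was -0.0068 with a pooled SD of 0.014 (exact permutation p = 1). Among wider peaks the median was -0.35 in introns and -0.37 between genes, and narrow peaks were nearer to 0 in each place.

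After RLE scaling, single narrow peaks passed the test less often than peaks in general. With limma on RLE-scaled log2(signal + 1) and an adjusted p under 0.01, 5 narrow peaks (0.056%) were lower in normoxia, where 4.57% of all peaks were, and 67 (0.753%) were higher, where 1.77% of all peaks were. Of the wider shared distal peaks 2.54% were lower and 2.34% higher. In 2698 narrow peaks both normoxia values lay below both hypoxia values (30.3%, against 59.5% of all peaks), and in 1252 they lay above (14.1%, against 6.94%). The caller assigned peaks to both conditions from the same 4 libraries, so a site lost altogether in either condition is not in this set. The reads behind a narrow peak are few, and the part of depth in the lower share of calls was not tested.

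The balance of these calls followed the scaling. On values as deposited 67 narrow peaks were called lower (0.753%, against 24.0% of all peaks) and 42 higher (0.472%, against 0.391% of all peaks), so for higher calls the order of narrow peaks and all peaks turned, and all 42 were among the 67 called higher after RLE scaling. All 5 lower peaks were also called lower on values as deposited. With edgeR on the recovered reads 6 were lower (5.7% of all peaks were) and 102 higher (2.54% of all peaks were), and these held 5 and 66 of the peaks called by limma. DESeq2 called 0 narrow peaks in either direction (2.63% and 0.0945% of all peaks), with 13 lower and 280 higher at an unadjusted p under 0.05. At an adjusted p under 0.05 limma called 23 lower (9.68% of all peaks) and 342 higher (5.38%). Without hypoxia library 1, and equally without hypoxia library 2, limma called 0 narrow peaks and also 0 of all 128055 peaks, with 48 lower and 570 higher, and 67 lower and 669 higher, at an unadjusted p under 0.05.

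All 5 lower peaks were intergenic, whereas 41 of the higher peaks were intergenic, 22 intronic and 4 touched an exon. Of the higher peaks 45 were 400 bp wide, 19 were 300 bp and 3 were 200 bp. They were weak sites, with a median of 6.5 reads in hypoxia against 20.5 in normoxia, and a median log2 fold change of 1.73 (range 1.38 to 2.53). They lay a median of 91310 bp from a protein-coding start site and had a median GC content of 41%, against 42275 bp and 45% in all narrow peaks.

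Lower peaks described here lay near Npy1r, a neuropeptide Y receptor, and Plk2, a polo-like kinase. The Npy1r peak (chr8:66712301-66712700), at 14879 bp from the start, measured 18.8 and 39.4 in hypoxia against 4.87 and 10.3 in normoxia (log2 fold change -1.35, SE 0.29, limma adjusted p = 0.00197). Its replicates differed widely in each group, with a mean of 29.1 and SD of 14.6 in hypoxia and of 7.61 and 3.87 in normoxia. The Plk2 peak (chr13:110492601-110493000), at 97555 bp, measured 13.8 and 15 in hypoxia against 4.50 and 3.00 in normoxia (log2 fold change -1.30, SE 0.32, limma adjusted p = 0.00649). The Npy1r peak was joined to hypoxia-only sequence, and the Plk2 peak was the only 1 of the 5 lower peaks that was not.

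Among the higher peaks, the lowest p belonged to a site in an intron of Ralgps2, a Ral exchange factor, 16262 bp from the start of Angptl1, which encodes a secreted angiopoietin-like protein. Its signal was 1.06 and 0.680 in hypoxia, from 3 and 2 reads, against 8.25 and 7.01 in normoxia, from 22 and 21 reads. The log2 fold change was 2.53 with an SE of 0.43 (limma adjusted p = 0.000209). A 400-bp site 583163 bp from Efnb2, the gene of the ligand ephrin-B2, measured 1.06 and 5.10 in hypoxia against 7.87 and 14.7 in normoxia (log2 fold change 2.12, SE 0.40, limma adjusted p = 0.000562). Here the hypoxia libraries differed much from each other.

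The next higher peaks had similar levels. The peak that touched an exon of Sltm, a nuclear RNA-binding protein gene, measured 1.77 and 1.36 in hypoxia against 9.74 and 6.34 in normoxia (limma adjusted p = 0.000613). It lay 436 bp from an annotated Sltm start that the rule did not count. The peak (chr9:28459201-28459600) in an intron of Opcml, a neural cell adhesion gene, measured 1.06 and 2.04 in hypoxia against 7.87 and 7.01 in normoxia (limma adjusted p = 0.000795). The peak (chr5:12868101-12868500) 484595 bp from Sema3d, a secreted guidance protein, measured 2.12 and 2.38 in hypoxia against 7.5 and 9.01 in normoxia (limma adjusted p = 0.000982). None of these 5 higher peaks touched another peak. The rule by which they and the lower peaks were named asked for groups that do not overlap, so the gap between groups was fixed by that choice.

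**Figure D4:**
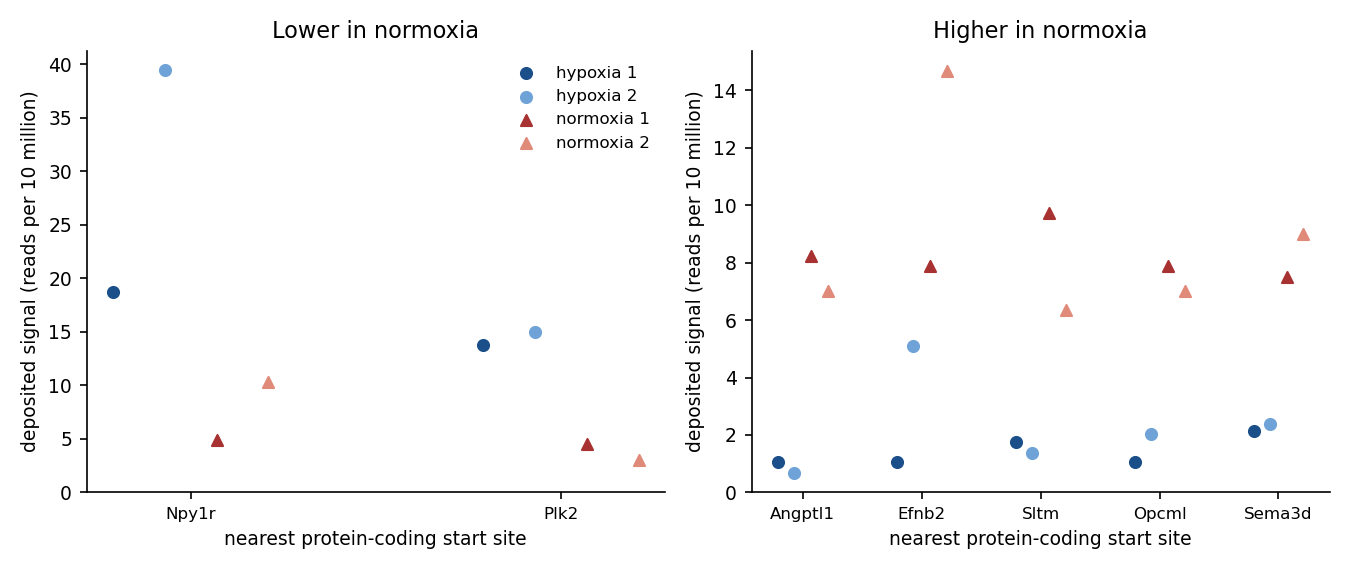
Deposited signal (reads per 10000000) of 2 called lower peaks and of the 5 higher peaks with the lowest limma p, 1 point per library. Peaks are named by the nearest protein-coding start site. Lower peaks fall from between 13.8 and 39.4 in hypoxia to between 3.00 and 10.3 in normoxia, and higher peaks reach 6.34 to 14.7 in normoxia.

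Narrow peaks were of 2 kinds by their surroundings. Of the 8901, 1335 were joined end to end to a hypoxia-only peak, 218 of them on both sides. Another 2 touched only a peak that was not labelled hypoxia-only. These counts are not set against the number of peaks of each kind in the series, so neither is read as an excess. The caller made these assignments from the same 4 libraries and from bins of 300 bp moved in steps of 100 bp that share reads, so the following values are a description. The joined peaks were weak (median signal 1.48, against 3.91 in the other 7566) and had a median log2 ratio of -0.32, against -0.15 in the others. Wider peaks were split in the same direction, with -0.66 in the 6522 joined ones and -0.34 in the others. Of these 10.2% and 1.88% were called lower, and the joined wider peaks were the stronger (median signal 27.5 against 15.1). The joined narrow peaks held 4 of the 5 lower calls and none of the 67 higher calls. They also included 30 of the 46 narrow peaks with a mean signal over 6, so most of the strongest narrow peaks continued into hypoxia-only sequence. The 5 strongest narrow peaks were all of this kind, and the fifth of them, near Dcbld2, measured 12.4 and 17.7 in hypoxia against 6.0 and 3.67 in normoxia but did not pass the test (limma adjusted p = 0.0238).

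The comparison with wider peaks held without the joined peaks. The other 7566 narrow peaks took 0.283% and 0.307% of the hypoxia libraries against 0.258% and 0.272% of the normoxia libraries, a ratio of 0.899. Against wider peaks that were also not joined, the mean log2 difference within a library was -2.15 and -2.18 in hypoxia against -1.95 and -2.01 in normoxia (change 0.18, pooled SD 0.035, exact permutation p = 0.333).

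Narrow peaks also differed by base composition, as wider peaks did. In the lowest tercile of GC content the median log2 ratio was -0.08, in the middle one -0.19 and in the highest -0.23. The higher calls numbered 39 (1.29%), 18 (0.591%) and 10 (0.352%) in the same order. Wider peaks showed the same order, with medians of -0.29, -0.37 and -0.43 and higher calls in 3.92%, 2.08% and 1.17%. Within libraries, the mean log2(signal + 1) of high-GC minus low-GC narrow peaks was 0.094 and -0.052 in hypoxia against -0.11 and -0.15 in normoxia, so the hypoxia libraries were spread widely (change -0.16, pooled SD 0.076, exact permutation p = 0.333). Narrow peaks over 20 kb from any other peak had a median of -0.08 and a summed ratio of 0.960, and those 1 to 5 kb from another peak -0.18 and 0.868. Those up to 1 kb away without touching it had -0.14 and 0.896, so the order did not follow distance throughout. The median GC content of the 3 classes was 42.3%, 45.7% and 46.7%. Within libraries, the mean log2(signal + 1) of peaks over 20 kb minus that of peaks up to 1 kb away was 0.43 and 0.54 in hypoxia against 0.53 and 0.58 in normoxia, and the groups overlapped (change 0.066, pooled SD 0.063, exact permutation p = 0.667). By autosome the median ranged from -0.23 (chromosome 10) to -0.06 (chromosome 6).

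Except for CTCF, motif matches were of similar frequency in narrow and wider peaks. In the middle 300 bp, 27.1% of narrow peaks held an AP-1 match, 23.4% of wider peaks did, and 8.89% of 7683 windows 2 kb to the side that overlapped no peak. RUNX matches were in 29.5%, 28.4% and 20.6%, TEAD matches in 23.7%, 23.2% and 16.0%, and C/EBP matches in 18.2%, 17.2% and 12.5%. The CTCF core was in 3.24% of narrow peaks, 1.91% of wider peaks and 0.117% of the side windows. HIF matches were in 24.5%, 26.2% and 21.4%, E-boxes (CANNTG, which overlap with some other motifs) in 81.8%, 80.5% and 80.6%, and the CArG box of SRF in 1.66%, 1.73% and 1.68%, while the palindrome of NFI was in 1 narrow peak. Narrow peaks joined to hypoxia-only peaks held fewer AP-1 matches (15.2%) than the others (29.2%). The window was 300 bp for every peak, so in peaks of 100 or 200 bp it reached past the peak. Joined peaks had a median width of 200 bp, and many of their windows ran into the adjoining peak. The part of this in the motif shares was not tested. Repeats covered 15.5% of the narrow windows, 14.3% of the wider ones and 29.0% of the side windows.

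**Figure D5:**
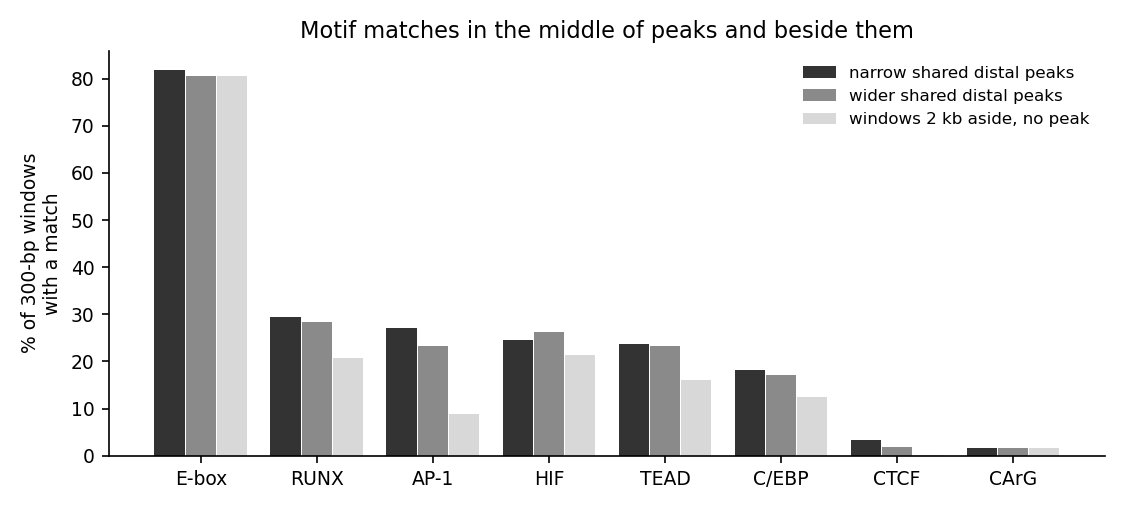
Share of 300-bp windows with at least 1 match to each motif, in the middle of narrow shared distal peaks, in the middle of wider shared distal peaks and in windows 2 kb to the side with no peak. AP-1 and CTCF stand furthest above the side windows in relative terms, and the bars of narrow and wider peaks are within 4 percentage points of each other for every motif.

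Peaks with a TEAD match and peaks with an AP-1 match differed in opposite ways, in the narrow set and in the wider one. TEAD factors bind DNA with the co-activators YAP and TAZ, and AP-1 is the family of Fos and Jun dimers. Narrow peaks with a TEAD match had a median log2 ratio of -0.07, against -0.20 without one, and 31 of the 67 higher peaks held a match. Their mean log2(signal + 1) exceeded that of peaks without a match by 0.0024 and 0.020 in hypoxia against by 0.15 and 0.15 in normoxia. With an AP-1 match the median was -0.24, against -0.15 without, and 13 of the 67 higher peaks held one. The excess of peaks with an AP-1 match was 0.19 and 0.24 in hypoxia against 0.12 and 0.14 in normoxia. The groups did not overlap for either motif, but of 8 motifs compared 7 gave the smallest exact permutation p of 0.333 (adjusted 0.381), CTCF being the exception with 0.667. In wider peaks the median was -0.30 with and -0.39 without a TEAD match, and -0.41 with and -0.36 without an AP-1 match. The median GC content of narrow peaks was 45% with and without a TEAD match, and 44.3% with and 45.3% without an AP-1 match.

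Narrow peaks lay near genes of all 3 lists for MSC fate. Of all narrow peaks 0.809% were called by limma and 12.6% had an unadjusted p under 0.05, so counts of 0 calls in lists this small are near that share and show nothing about them. Of 28 narrow peaks nearest to 12 osteogenic genes, 23 nearest to 8 adipogenic genes and 31 nearest to 6 chondrogenic genes, limma called 0, and 2, 2 and 3 had an unadjusted p under 0.05. The median log2 ratios were -0.26, -0.27 and -0.08, beside -0.17 in all narrow peaks. For the osteogenic list, the strongest peak lay nearest to Runx2, the master regulator of osteoblasts, within an intron of Supt3, and measured 3.54 and 6.46 in hypoxia against 6.0 and 5.01 in normoxia. The strongest peak of the adipogenic list lay in an intron of Ebf2, a factor of adipocyte precursors, and measured 6.02 and 5.78 in hypoxia against 4.12 and 3.34 in normoxia. The strongest chondrogenic one, nearest to the cartilage regulator Sox9, measured 2.48 and 7.82 in hypoxia against 5.62 and 6.67 in normoxia. The groups overlapped at Runx2 and Sox9 but not at Ebf2, where limma after RLE scaling gave an adjusted p of 0.828.

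The signalling and identity lists also held 0 calls, again near the share of all narrow peaks. Of 50 narrow peaks nearest to genes of the Wnt, BMP and TGF-beta pathways, 6 had an unadjusted p under 0.05, as had 2 of 27 near mesenchymal identity genes, 1 of 7 near hypoxia response genes and 0 of 6 near AP-1 genes. The medians were -0.25, -0.43, -0.29 and -0.60. At Smad3, a mediator of TGF-beta signals, the strongest peak measured 8.85 and 4.76 in hypoxia against 5.62 and 3.67 in normoxia. At Cxcl12, a chemokine that holds blood stem cells in the marrow, it measured 4.95 and 4.08 in hypoxia against 6.37 and 6.67 in normoxia, and the groups did not overlap (limma adjusted p = 0.0987). At Pdk1, which encodes a pyruvate dehydrogenase kinase, it measured 4.95 and 3.06 in hypoxia against 4.87 and 7.34 in normoxia. At Fosl1, which encodes the AP-1 protein Fra-1, it measured 2.48 and 9.86 in hypoxia against 3.75 and 1.67 in normoxia, with hypoxia library 2 far above the other 3. At Smad3, Pdk1 and Fosl1 the groups overlapped.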

How the data were processed

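ATAC-seq was performed on sorted mouse bone-derived MSCs, 2 libraries from 2% O2 and 2 from 21% O2. Per the labels and the methods, the authors mapped reads to mm10 with Bowtie2, removed duplicates with Picard and called peaks over both conditions with chromstaR in differential mode (bins of 300 bp, steps of 100 bp, mapping quality of at least 15); tool versions are not given for Bowtie2, Picard and chromstaR in the sources used here. The deposited signal per peak and library is named RPKM by the authors but is not divided by width. In each library 100% of values were whole multiples of 1 step (10000000 over a whole number, taken as the library total), from which reads were recovered. It is not known if they are fragments or read positions, and neighbouring bins share reads, so no counting interval is given. All columns belonged to these libraries.

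Peaks were placed by GENCODE M21, whose build matched (0 chromosomes with a peak past their end). The study's own differential test was edgeR, which takes counts. The deposited values are a scaled signal, so limma 3.58.1 in R 4.3.3 (lmFit, eBayes with trend and robust) was fitted to log2(signal + 1) of all 128055 peaks after scaling by RLE size factors (1.13 and 1.23 in hypoxia, 0.810 and 0.886 in normoxia), two-sided, with Benjamini-Hochberg adjustment and a threshold of 0.01. edgeR 4.0.16 and DESeq2 1.42.0 on recovered reads were alternatives, and the fits were tested on simulated data. Fold changes are normoxia over hypoxia and understate the change of weak peaks. Values per library were compared by exact permutation tests in SciPy 1.17.1, and no test was run across peaks. Where nothing more is said of the cultures, p-values measure the spread between these libraries, which may be technical.

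Named peaks were the 5 with the lowest limma p in each direction with a mean signal of at least 3 and no overlap between groups, the 5 with the highest mean signal and, in each gene list, the strongest. Some of these peaks are not reported here. A peak was tied to the nearest protein-coding start site. Sequence windows came from the RefSeq copy of GRCm38, with repeats as soft-masked there. The members and lists were chosen with earlier results of these data known. Alternatives covered scaling, pseudocounts, filters, thresholds, test settings, annotation, width and distance limits, and each library left out.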

Additional observations from a re-analysis of the deposited data

How the results depend on the processing

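Narrow peaks were lower on the deposited scale, but the sign depended on the reference. The median log2 ratio of -0.17 became 0.17 with RLE factors, 0.39 with equal totals over peaks and 0.0021 with a mean signal of at least 5, and it was -0.23 and -0.083 with pseudocounts of 0.1 and 5, and -0.25 without mitochondrial reads. Leaving out 1 library gave -0.23 to -0.13. The ratio of read shares of 0.872 turned to 1.35 over reads in autosomal peaks, and stayed at 0.837 to 0.909 without 1 library. The cause was not tested.

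The difference from wider peaks kept its sign in every alternative run. It was 0.20 at first, 0.095 with RLE factors, 0.037 with equal totals, 0.37 at a mean signal of at least 5, 0.069 against peaks of 500 to 1000 bp and 0.023 against peaks of 500 to 700 bp, and 0.17 to 0.25 without 1 library. A constant added before the log holds back the shift of weak peaks more than that of strong ones under any scaling. The difference was 0.16 with a constant of 0.1 and 0.21 with a constant of 5. The part of the constant in the difference was not tested. The ratio of the share ratios was 1.25, and 1.22 to 1.30 without 1 library. Within libraries the difference was 0.067 over medians and 0.18 over means. The intronic share moved from 41.7% to 47.5% with all GENCODE genes and 43.3% with peak centres. The intergenic share moved from 52.8% to 44.5% with all genes, so that introns then held the larger share. The intron minus intergenic difference was 0.0038, -0.012 with all genes, -0.0042 with RLE factors, and -0.015 to 0.026 without 1 library, so its sign was not stable.

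Calls moved most. Lower and higher calls (5 and 67) became 67 and 42 as deposited, 3 and 189 with equal totals, 4 and 19 with quantile normalization, 8 and 47 with cyclic loess, 4 and 32 and then 5 and 86 with pseudocounts of 0.1 and 5, 6 and 34 at a mean of at least 5, 6 and 102 with edgeR, 5 and 104 with TMM factors, 7 and 72 with GC correction, 23 and 342 at a threshold of 0.05, and 1 and 67 without joined peaks. Calls fell to 0 and 0 without the eBayes trend (449 lower and 1552 higher at an unadjusted p under 0.05), to 0 and 0 without trend and robust estimation (458 and 1580), and to 0 and 0 with DESeq2 (13 and 280). Without the trend, with or without robust estimation, and without either hypoxia library, 0 of all peaks were called too, whereas DESeq2 called 3373 lower and 121 higher among all peaks. Without 1 library they ranged from 0 to 7 lower and from 0 to 43 higher, with 0 and 0 without hypoxia library 1 (48 and 570 at an unadjusted p under 0.05) or 2 (67 and 669), 7 and 29 without normoxia library 1 and 5 and 43 without normoxia library 2. Each called peak named lost its call without either hypoxia library, with adjusted p between 0.168 and 0.287, and kept its direction.

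Replicate numbers were not treated as pairs. The paper states that the sorted population was divided between hypoxia and normoxia, and the labels do not say which libraries shared a sort. Deviations of equally numbered libraries correlated at 0.011 over all peaks and 0.020 over narrow peaks. With so few libraries this cannot decide if they were pairs. With the number as a replicate block 9 were lower and 130 higher, and with block and GC correction 17 and 208.

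Of the alternative values of these comparisons, 53 stayed within 1 SD between replicates (for counts within 1.5 times, for shares within the binomial interval), 48 moved further and 4, printed above, reversed. The sign also differed in 4 values of the intron minus intergenic difference. For single named peaks 122 kept their call or lack of one, 18 lost a call, 4 gained one, all at the Dcbld2 peak. In 8 values, of 6 peaks, the sign differed from that of the reported fold change (Ebf2, Smad3, Fosl1, Ptprc, Kdr and Afp); none of these peaks was called, and the lowest adjusted p of those values by limma was 0.684. The alternatives without joined peaks, without mitochondrial reads, with peaks of 500 to 700 bp and with means over peaks were chosen after seeing the data.

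Depth limits single peaks: a median of 8 to 11 reads makes 1 read a visible share of the signal, and 2 libraries a group cannot bring an exact p under 0.333. Weaker sites that the caller assigned to 1 condition are outside this set.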

Other observations

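Some genes held many narrow peaks in their introns. Gm20388 on chromosome 8 held 23, with a summed signal of 85.6 and 86.4 in hypoxia against 75.7 and 68.1 in normoxia. Fgfr2, a receptor for fibroblast growth factors, held 16, with 54.1 and 59.5 in hypoxia against 44.2 and 52.7 in normoxia. Hdac9, a class IIa histone deacetylase, held 10, with 37.2 and 52.4 in hypoxia against 45.4 and 48.1 in normoxia, and 1 of these was called higher by limma at an adjusted p under 0.01. Auts2 and Robo1, genes of neural development, held 10 each with no call. Groups did not overlap at Gm20388 and Fgfr2, and they overlapped at Hdac9. The list was ordered by the number of peaks and not by change.

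Narrow peaks also lay near genes of other cell types, with 0 calls by limma, where 0.809% of all narrow peaks were called and 12.6% had an unadjusted p under 0.05. There were 8 nearest to blood genes (0 with an unadjusted p under 0.05), 17 nearest to endothelial genes (2) and 5 nearest to neural and liver genes (2). In an intron of Ptprc, which encodes the blood cell antigen CD45, the strongest measured 7.43 and 2.72 in hypoxia against 5.25 and 5.67 in normoxia. The strongest near Kdr, the VEGF receptor of endothelium, measured 2.48 and 7.48 in hypoxia against 5.62 and 4.00 in normoxia. In an intron of Afp, a fetal liver gene, it measured 6.02 and 4.76 in hypoxia against 5.25 and 4.34 in normoxia. This Afp peak lay 431 bp from an annotated Afp start that the rule did not count. In each of the 3 the hypoxia libraries spanned or overlapped the normoxia values.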
